A study of Gallus gallus with 4 samples.

Results

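Simple repeats are stretches of DNA in which a short unit is copied head to tail. The repeat tables of this series listed 265 names, of 11336 in all, whose unit has 5 or more letters and is written with A and T only. They were chosen by their names, not by their levels. The RNA came from cranial neural folds of the chick (Gallus gallus), which border the head neural plate and give rise to the cranial neural crest. Knockout tissue had received a Cas9 construct and Chiwi guides, aimed at PIWIL1, a PIWI protein of the chicken, on the right side of the embryo. Control tissue had received Cas9 with control guides on the left side. Embryos were electroporated at stage HH4 after about 18 h at 37 °C and were taken about 14 h later at HH9-.

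There were 2 knockout and 2 control libraries, each from the pooled folds of several embryos, and the labels number them 1 and 2 within each group. Side and genotype therefore coincide in every library, and electroporation leaves cells without the construct in the dissected tissue. Nothing in the labels says whether the pools were made from different embryos, so every SD measures the spread between these pools. Each p-value rests on spread between the pools that the fit partly shares over all tested names. The gene tables held 38783357 to 40352750 reads per library, and 2707324 to 2942281 reads were assigned to repeats. Of 24356 gene IDs, 0 could be paired with a symbol here, so neither Chiwi itself nor markers of the neural folds were analysed. In bulk tissue, fewer cells of a type and less RNA per cell cannot be told apart.

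PIWI proteins bind small RNAs called piRNAs and are best known for keeping transposons silent in germ cells. A/T-only repeats are not transposons and can arise by slippage of DNA polymerase. They are common in introns and between genes. In a whole-tissue library, reads on them can therefore come from unspliced or long transcripts that run across the array. Whether a read inside a gene was counted in both tables is not given in the sources used here. The tables likewise do not say from which genomic copies the reads of a name came, or on which strand they lay.

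The units below belong to 5 of the names that carry many of the reads, with 3 of the reverse direction for contrast. Each line gives 2 copies of the unit head to tail, 5′ to 3′, and capitals mark the rarer base. Where a unit has a single base, the line has no capitals.
repeat (TTAATTT)n: ttAAtttttAAttt
repeat (TTATT)n: ttAttttAtt
repeat (TTTTA)n: ttttAttttA
repeat (ATTTAT)n: AtttAtAtttAt
repeat (TTTTT)n: tttttttttt
repeat (TAAAA)n: TaaaaTaaaa
repeat (AAAAT)n: aaaaTaaaaT
repeat (AATAA)n: aaTaaaaTaa
Names that are rotations of the same unit are listed separately in the tables. (TTATT)n, for example, and its rotation (TTTTA)n describe the same array read from a different starting letter. Grouped by rotation, the 265 names fall into 73 classes, of which 48 had reads.

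Most names were rare and a few carried most of the signal. Levels are given as reads per 1000000 gene reads of the same library (CPM). Of the 265 names, 176 had at least 1 read, 123 had reads in all 4 libraries and 89 had no reads. Mean levels over the 4 libraries were 10 CPM or more for 9 names, between 1 and 10 CPM for 35, between 0.1 and 1 CPM for 60, and lower for 72. (TTTATT)n alone held 21.0% of the summed level, and with (TTAATTT)n the share was 38.4%. The 10 highest names held 68.0% and the 20 highest 83.1%.

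**Figure D1:**
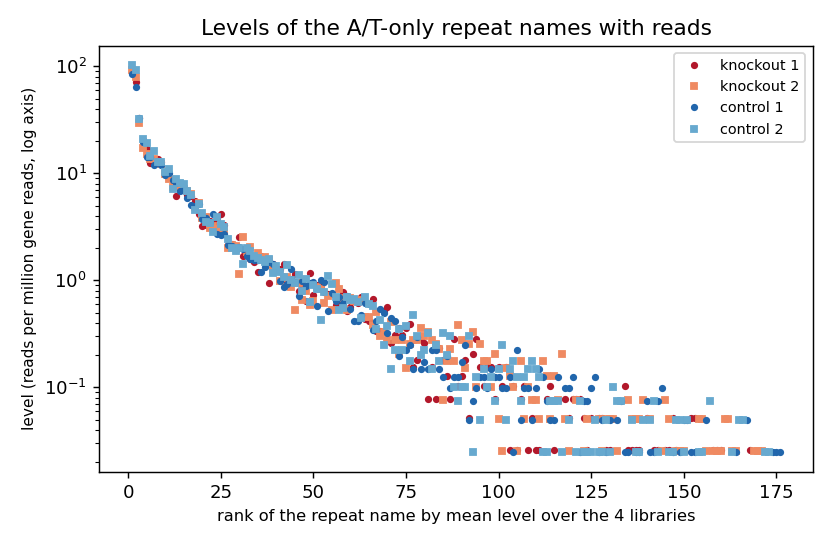
Level of each A/T-only name with reads in each library (y axis, CPM, log axis) against its rank by mean level over the 4 libraries (x axis). The 2 highest names stand apart from the rest in every library, 9 names lie at a mean of 10 CPM or more, and the flat rows at the bottom are names with 1 to 3 reads in a library.

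Among units of 6 letters the reads centred on (TTTATT)n. It stood at 90.0 and 91.9 CPM in the knockout libraries and at 85.1 and 102 CPM in the control libraries. The highest and the lowest value both belong to control tissue, with the knockout values between them. The log2 fold change, knockout over control, was -0.043 (SE 0.11, 95% interval -0.27 to 0.19). (TTTTTA)n, a rotation of the same unit, had 16.9 and 15.2 CPM in knockout libraries against 14.1 and 19.3 CPM in control libraries (log2 fold change -0.058, SE 0.15). (ATTTAT)n, whose unit alternates more often between A and T, had 12.5 and 13.7 CPM in knockout libraries against 14.1 and 14.6 CPM in control libraries (log2 fold change -0.13, SE 0.14). For (ATTTAT)n the groups did not overlap, and the interval ran from -0.42 to 0.15.

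Units of 7 letters were led by (TTAATTT)n at 70.7 and 78.8 CPM in knockout libraries, against 64.6 and 92.7 CPM in control libraries. The control pools again lay on either side of the knockout pools. Counting error does not cover the gap between the controls, since the exact Poisson 95% intervals were 62.1 to 67.1 CPM for control 1 and 89.7 to 95.7 CPM for control 2. Such intervals cover counting error only. Its log2 fold change was -0.073 (SE 0.13, interval -0.34 to 0.19). The next names of this length were (TTTTTAA)n and the unbroken (TTTTTTT)n. Of these, (TTTTTAA)n had 8.51 and 7.49 CPM in knockout libraries against 8.75 and 7.21 CPM in control libraries (log2 fold change 0.0036, SE 0.16). (TTTTTTT)n had 7.12 and 7.19 CPM in knockout libraries, just below 7.21 and 7.91 CPM in control libraries (log2 fold change -0.080, SE 0.16).

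Among units of 5 letters the leading name held a smaller part of the sum than at 6 or 7 letters. (TTATT)n had 32.7 and 29.2 CPM in knockout libraries against 33.0 and 32.5 CPM in control libraries (log2 fold change -0.080, SE 0.12). (TTTTA)n had 20.3 and 17.3 CPM in knockout libraries against 19.4 and 21.0 CPM in control libraries (log2 fold change -0.10, SE 0.13). Groups overlapped for both names. (TAAAA)n, the highest A-rich name, had 12.4 and 13.7 CPM in knockout libraries against 11.8 and 16.0 CPM in control libraries (log2 fold change -0.099, SE 0.15). The unbroken (TTTTT)n was the steadiest of these, with 13.6 and 12.8 CPM in knockout libraries against 13.0 and 12.9 CPM in control libraries (log2 fold change 0.028, SE 0.14).

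By unit length, the 61 names of 6 letters gave the largest sum, 187 ± 0.351 CPM in knockout libraries against 190.4 ± 19.0 CPM in control libraries (SD, n = 2 each). The 32 names of 5 letters summed to 134 ± 1.95 CPM in knockout against 141 ± 6.48 CPM in control libraries. The 105 names of 7 letters summed to 109 and 115 CPM in knockout against 102 and 131 CPM in control libraries. The summed level then dropped sharply. Sums were not divided by the number or length of annotated copies, and the part of these in the drop was not tested. The 53 names of 8 letters held 12 and 13 reads in knockout libraries 1 and 2, and 19 in each control library, or 0.309 and 0.33 CPM against 0.471 and 0.474 CPM. These groups did not overlap, but the exact Poisson intervals did, at 0.160 to 0.540 and 0.176 to 0.564 CPM for the knockout libraries against 0.283 to 0.735 and 0.285 to 0.740 CPM for the control libraries. The 2 leading names of this length were (AAAATAAA)n, with 3 and 10 reads in knockout tissue against 9 and 10 in control tissue, and (TTAATATT)n, with 3 and 0 against 5 and 0 reads. Of the 14 names of 9 or more letters, the single name with a read was (TTTTATTTTT)n, at 1 read in knockout library 2, and 0 reads in a library allow up to 0.0774 CPM (3 reads, the one-sided 95% limit).

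**Figure D2:**
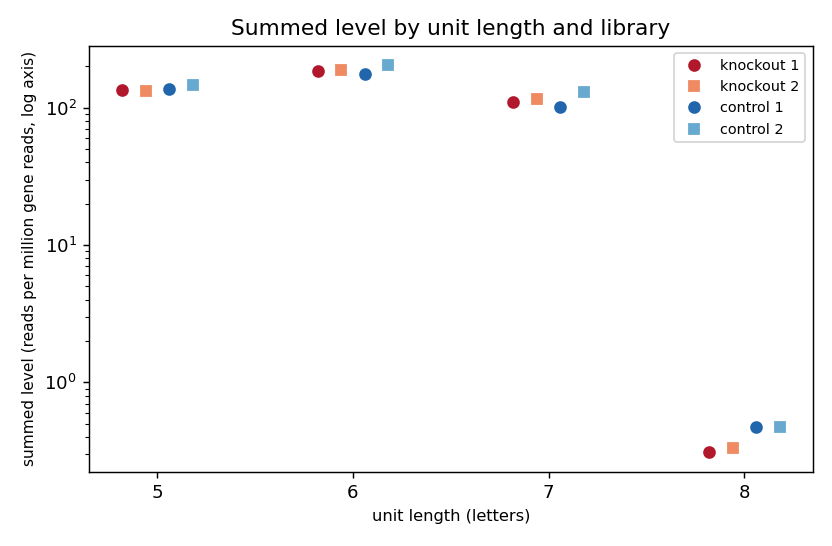
Summed level of A/T-only names (y axis, CPM, log axis) by unit length in letters (x axis), with a point for each library and knockout libraries to the left of control libraries. Sums for 5, 6 and 7 letters lie between 102 and 204 CPM, and those for 8 letters under 1 CPM.

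T-rich names far outweighed A-rich names in reads. Levels were not divided by the number or length of annotated copies, and the strand setting of the counting is not known. The part of these in the imbalance was not tested. The 132 names with more T than A held 84.7% of the summed level, the 98 with more A than T held 12.7%, and the 35 balanced names held 2.62%. T-excess names summed to 366 and 368 CPM in knockout libraries and to 349.7 and 409 CPM in control libraries. A-excess names summed to 54.1 and 56.1 CPM in knockout libraries against 54.5 and 59.1 CPM in control tissue. The T-excess to A-excess ratio was 6.77 and 6.55 in knockout libraries against 6.41 and 6.91 in control libraries, so the groups overlapped. The mean ratio was 6.66 ± 0.153 in knockout libraries against 6.66 ± 0.354 in control libraries (SD, n = 2 each). Without the 2 highest names, both with more T than A, the ratio was 3.51 to 3.79 over the 4 libraries. For G/C-only names of 5 or more letters, C excess over G excess was 1.98 to 2.08.

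The imbalance of T-excess over A-excess names differed with the unit length as named. Units that repeat a shorter unit, such as (TTTTT)n, were kept at their named length. The 4 single-base names, 3 of T and 1 of A, held 5.32% of the summed level. The part of this naming in the ratios was not tested. Single-letter repeats, (T)n over (A)n, gave ratios of 1.87 to 1.89 over the 4 libraries. Ratios were 1.70 to 1.84 for units of 3 letters, 2.06 to 2.29 for 4 letters and 1.88 to 2.06 for 5 letters. Units of 6 letters gave 26.1 and 23.8 in knockout against 24.2 and 32.0 in control libraries. Units of 7 letters gave 41.0 and 36.1 in knockout against 31.6 and 48.9 in control libraries. Units of 8 letters went the other way in 3 of the 4 libraries, with ratios of 2.67 and 0.0909 in knockout against 0.583 and 0.308 in control libraries, from 20 T-excess and 39 A-excess reads in all. The highest name of 5, of 6 and of 7 letters has more T than A, so leaving it out must lower the ratio. Without (TTTATT)n the ratio for 6 letters was 10.9 to 14.4 over the 4 libraries, without (TTAATTT)n that for 7 letters was 10.7 to 13.8, and without (TTATT)n that for 5 letters was 1.24 to 1.31.

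**Figure D3:**
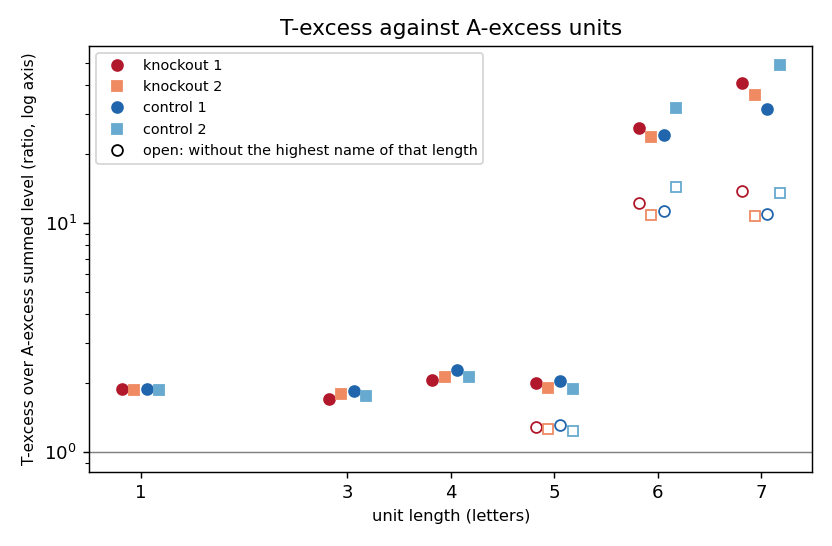
Ratio of the summed level of T-excess units to that of A-excess units (y axis, log axis) by unit length (x axis) in each library, with the highest name of that length included (filled) or left out (open, lengths 5, 6 and 7). Ratios lie near 2 up to 5 letters with all names and above 10 for 6 and 7 letters with or without the highest name.

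The same imbalance was set out by reverse complement. An array of a T-rich unit on one strand is an array of the matching A-rich unit on the other, so both forms can be compared for 25 pairs of rotation classes. In 8 pairs each form reached 0.5 CPM, and in 7 of these the T-rich form was higher in all 4 libraries. The T over A ratio of these 8 ranged from 0.637 to 51.3, with a median of 4.50. The 6 rotations of (TTTATT)n summed to 135 CPM over the 4 libraries and their 6 reverse complements to 2.62 CPM, a ratio of 51.3. The 5 rotations of (TTATT)n summed to 70.4 CPM and their reverse complements, which include (TAAAA)n and also (AAAAT)n besides (AATAA)n, to 39.6 CPM, a ratio of 1.78. The pair with the opposite order was the class of (AATAT)n, at 2.53 CPM in the A-rich form against 1.61 CPM in the T-rich form. Below that minimum in its A-rich form, the class of (TTAATTT)n had 13878 reads in the T-rich form and 5 in the A-rich form over all libraries. Of the 17 pairs with a form below the minimum, the T-rich form was higher in all 4 libraries in 7 and the A-rich form in 1, 6 were mixed or lacked reads in some library, and 3 had no reads. The A-rich exception was the class of (AAAATAAA)n, with 32 reads against 1 in the T-rich form.

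Within a rotation class, reads clustered on names with certain starting letters. Levels were not divided by the number or length of the annotated copies of a name, which were not available here. How far the shares below follow them was not tested. (TTTATT)n held 68.6% of its class and was 5.64 times as high as the next rotation, (TTTTTA)n. Likewise, (TTAATTT)n held 87.7% of its class and was 9.60 times as high as (TTTTTAA)n. The class of (TTATT)n was more even, with 45.2% in the leading rotation. In the A-rich class of (TAAAA)n the leading share was 34.1%, with (AAAAT)n nearly level at 12.4 against 13.5 CPM. In each of the 4 libraries (TTTATT)n led its class, as did (TTAATTT)n, and so did the leading name of 5 letters, (TTATT)n.

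The arrays were also searched for 3 short motifs, on the strand as named and on the other. AATAAA is the polyadenylation signal, which directs cleavage of the transcript end. Arrays that hold AATAAA as named made up 28 names and 9.95% of the summed level. Arrays that hold it on the other strand, written TTTATT, made up 41 names and 49.0% of the level, with (TTTATT)n itself the largest of them. The TTTATT arrays summed to 212 ± 3.70 CPM in knockout libraries against 220.0 ± 18.7 CPM in control libraries (SD, n = 2 each). The AATAAA arrays summed to 43.1 ± 1.39 CPM in knockout against 44.6 ± 3.25 CPM in control libraries.

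ATTTA, the core of AU-rich elements that shorten the life of messenger RNA, was found as named in 53 names with 7.85% of the level, and on the other strand in 37 names with 1.77%. TATAAA, the TATA box of promoters, was found as named in 19 names with 0.618% of the level, and on the other strand in 31 names with 6.73%. No name held more than 1 of the 3 motifs on the same strand. Among all 10683 simple repeat names with a unit of 5 or more letters, the shares of names were 0.337% for AATAAA and 0.580% for TTTATT. Among the A/T-only names they were 10.6% and 15.5%. For ATTTA as named and on the other strand, the shares were 1.45% and 0.842% of all against 20% and 14.0% of the A/T-only names. For TATAAA they were 0.281% and 0.487% against 7.17% and 11.7%. The motifs hold only A and T, so the choice of A/T-only units itself raises these shares. A match describes the letters of the array and is not evidence of use.

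Knockout and control tissue were compared name by name to ask whether any of these repeats differed between them. Loss of Chiwi itself was not measured here. Summed over all members, the level was 431 and 435 CPM in knockout libraries against 415 and 480.2 CPM in control libraries. The knockout libraries lay between the control libraries, with means of 433 ± 2.44 and 448 ± 45.8 CPM (SD, n = 2 each) and a log2 ratio of -0.048. Between libraries with the same number, the knockout library was higher by 0.055 log2 units for number 1, and the log2 ratio was -0.14 for number 2. An exact two-sided permutation test of 2 against 2 libraries cannot give a p under 0.33, so sums are described without a test.

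A filter on low counts (edgeR filterByExpr) left 82 of the 265 names, 22 of 5 letters, 36 of 6 and 24 of 7. They ranged down to a mean of 0.164 CPM. In the edgeR quasi-likelihood test over all 2803 repeat names that passed, 0 of the 82 were called at an adjusted p under 0.05, where 0% of all tested names were called. The smallest unadjusted p among the 82 was 0.076, so 0 lay under 0.05, against 1.39% of all tested names. Limma-voom and DESeq2 called 0 members as well, and 0% of all 2803 tested names. Fold changes were positive for 40 of the 82 and negative for 42, with a median of -0.024 on the log2 scale. Over all tested names 48.9% were positive and the median was -0.0043. In fits without control replicate 1 and without control replicate 2, edgeR again called 0 members, while 0.0333% and 0.0659% of all tested names were called.

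Of the tested members, 21 had no overlap between groups, or 25.6%, which is close to the 25.8% of all tested names. Knockout was higher in 8 of them and lower in 13, while over all tested names 12.9% had no overlap with knockout higher and 12.8% with knockout lower. Lower in knockout with the smallest p was (TTTAT)n, a rotation of (TTATT)n, at 6.11 and 7.69 CPM in knockout against 8.13 and 8.90 CPM in control libraries. Its log2 fold change was -0.30 (SE 0.16, interval -0.64 to 0.033). Leaving out knockout replicate 1 gave -0.15, and leaving out knockout replicate 2 gave -0.48. (ATATTT)n followed, with a mean of 0.678 ± 0.0617 CPM in the knockout pools and of 0.932 ± 0.0485 CPM in the control pools (SD, n = 2 each), with a log2 fold change of -0.46 (SE 0.35). Next was (ATTAAT)n, which averaged 0.448 ± 0.0132 CPM in the knockout pools and 0.659 ± 0.0558 CPM in the control pools, with a log2 fold change of -0.55 (SE 0.43).

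On the higher side, (TTATTTA)n had 27 and 26 reads in knockout against 19 and 18 in control libraries, or 0.696 and 0.660 against 0.471 and 0.449 CPM (log2 fold change 0.56, SE 0.42). (TAATTT)n was at 0.883 ± 0.0277 against 0.697 ± 0.179 CPM, and (TTATAT)n at 1.63 ± 0.0720 against 1.37 ± 0.252 CPM (SD, n = 2 each), knockout against control. Their log2 fold changes were 0.34 (SE 0.36) and 0.25 (SE 0.28). Without control replicate 1 they were 0.10 and 0.071, and without control replicate 2 they were 0.63 and 0.45. The 3 names have the 95% intervals -0.30 to 1.42, -0.39 to 1.07 and -0.32 to 0.82. All 16 tested names given here with a fold change had an edgeR adjusted p of 0.9997.

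The size of change that these libraries could show depended on the level. For the 9 names of at least 10 CPM, the log2 fold changes lay between -0.13 and 0.028, and their intervals reached from -0.42 to 0.31 at the extremes. The 95% interval extended by a median of 0.28 log2 units to either side for these names, by 0.49 for names between 1 and 10 CPM, and by 0.87 for tested names under 1 CPM. The log2 fold changes of the 82 ranged from -0.59 to 0.87, and 0 were past 2-fold. In simulated counts with the means and common spread of these libraries, the test called 16 of 50 repeat names changed 1.5-fold, 35 of 50 changed 2-fold and 47 of 50 changed 4-fold. The changed names were drawn from all 2803 tested names, many at once, with the same spread for every name. The median 95% interval reached 0.64 log2 units to either side over the 82 members and 0.51 over all tested names. The simulated counts therefore do not show how often a changed member would be called.

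**Figure D4:**
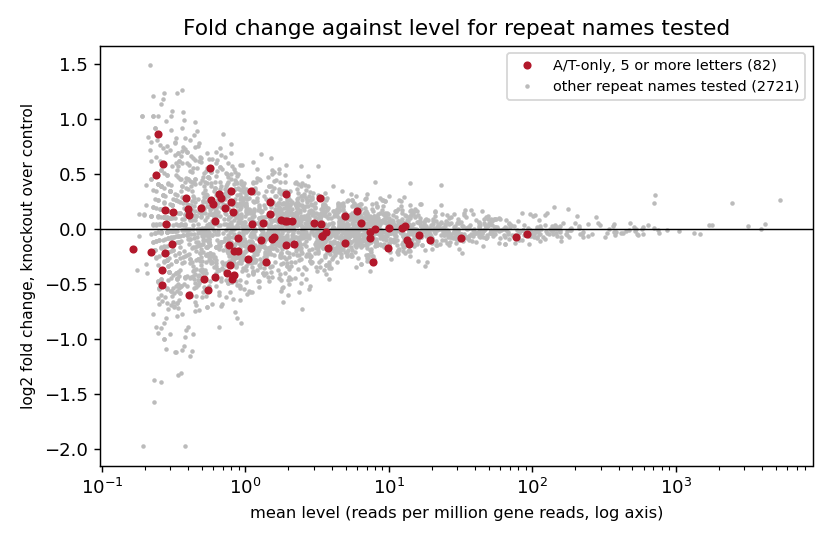
Log2 fold change of knockout over control (y axis) against mean level (x axis, CPM, log axis) for the 82 tested A/T-only names of 5 or more letters and all other tested names. The A/T-only names lie within the cloud of the others, and those of 10 CPM or more lie between -0.13 and 0.028.

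By unit length, the tested names of 5, 6 and 7 letters had small median log2 fold changes of either sign. Of these, 10 of 22 with 5 letters, 21 of 36 with 6 letters and 9 of 24 with 7 letters had a positive log2 fold change, with medians of -0.044, 0.044 and -0.12. By excess, 25 of 53 T-excess names, 9 of 19 A-excess names and 6 of 10 balanced names were positive. For 5 letters the summed level was lower in both knockout libraries, at 135 and 133 CPM, than in the control libraries, at 136 and 145 CPM. The log2 ratio there was -0.071, and without control replicate 2 it was -0.023. The groups overlapped for 6 and for 7 letters. For 8 letters, where no name passed the filter and a library held 12 to 19 reads, the log2 ratio of the summed level was -0.56, with no overlap.

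In the summed level and for the 2 highest names, the largest difference was between the 2 control libraries. Control 2 was above control 1 in 52 of the 82 tested names, or 63.4%. The share was 63.8% of the 210 tested names whose units of 5 or more letters have some but at most 25% G or C. It was 17.1% of the 146 tested G/C-only names. Knockout 2 was above knockout 1 in 37 of the 82. Among the 15 highest names, control 2 was the highest of the 4 libraries in 11. Over all 82 it was the highest in 35.4%, against 18.8% of all tested repeat names. The sum in control 2 was 64.8 CPM above that in control 1, and (TTTATT)n together with (TTAATTT)n made up 69.8% of that gap. Without these 2 names the sums were 271 and 264 CPM in knockout against 266 and 285 CPM in control libraries. The spread within a pair, as chi-square per degree of freedom over members with at least 10 reads in the pair, was 2.14 for the knockout and 2.96 for the control libraries, and without the 2 names 1.96 and 1.94. Several of the names given above differed more between the knockout libraries than between the control libraries. Among them was (TTATT)n, and so was its rotation (TTTAT)n. The same held for another rotation of that unit, (TTTTA)n, and for the unbroken (TTTTT)n. Of the units of 6 letters given by level, it held for (ATTTAT)n.

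The gap between the control libraries followed the base composition of the unit. The median log2 ratio of control 2 over control 1 was 0.11 over the 82 A/T-only names. It was 0.096 over 210 tested names with up to 25% G or C and 0.0093 over 616 with 25 to 50%. Beyond that it was -0.16 over 711 names with 50 to 75%, -0.20 over 531 with more than 75% but less than 100%, and -0.22 over 146 G/C-only names. For knockout over control, the medians in the same order were -0.024, -0.00012, -0.012, 0.0064, 0.032 and 0.023. By replicate number, the median of the A/T-only names was 0.057 for number 1 and -0.092 for number 2, while that of the G/C-only names was -0.12 and 0.16. The median log2 ratio of the knockout libraries, 2 over 1, was -0.058 for A/T-only and 0.056 for G/C-only names, with its highest median, 0.13, at 25 to 50%. The part of base composition in the comparison of knockout with control was not tested beyond these values.

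**Figure D5:**
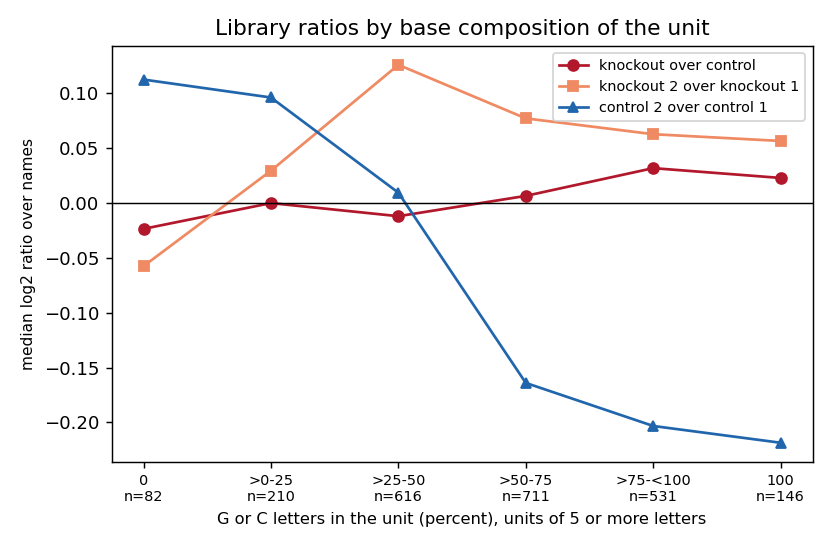
Median log2 ratio over tested names with units of 5 or more letters (y axis) by the percentage of G or C letters in the unit (x axis, with the number of names), for knockout over control, knockout 2 over knockout 1 and control 2 over control 1. The control libraries run from 0.11 at A/T-only units to -0.22 at G/C-only units, and knockout over control stays between -0.024 and 0.032.

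The most similar set with the opposite letters, the 189 G/C-only names of 5 or more letters, ran the other way in the control libraries. It summed to 2416 and 2495 CPM in knockout against 2604 and 2240 CPM in control libraries. The A/T-only sum over the G/C-only sum, which does not depend on scaling, was 0.179 and 0.174 in knockout against 0.160 and 0.214 in control libraries. The knockout values again lay between the control values. Its log2 ratio of knockout over control was -0.084, and without control replicate 2 it was 0.15. Of the G/C-only names, 146 were tested, 84 were positive with a median of 0.023, and edgeR called 0, with 1 at an unadjusted p under 0.05. The 28 A/T-only names of 2 to 4 letters summed to 1472 and 1419.5 CPM in knockout against 1382 and 1472 CPM in control libraries. The longer A/T-only names amounted to 29.3% and 30.6% of that level in knockout against 30.0% and 32.6% in control libraries.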

How the data were processed

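The submitters' processing notes name galGal6 as the build and list Bowtie2, featureCounts and DESeq2. Tool versions, the strand setting and the handling of reads with many matches were not given in the sources used here. Such reads may be split among names or dropped, which touches repeat names most. The authors deposited whole-number read counts per gene ID and per repeat name for each library, without a header. Members and lists were chosen with earlier results of these data known.

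Levels are counts divided by the summed gene counts of the library, times 1000000. Counts were tested with edgeR 4.0.16 in R 4.3.3 (filterByExpr with minimum count 10 and minimum total 15, glmQLFit, glmQLFTest, group as the only term). Library sizes were the summed gene reads, and p-values were adjusted by Benjamini-Hochberg over all 2803 names that passed. The fit draws the spread of each name toward that of all tested names, with a weight of 27.4 prior degrees of freedom. The SE is the log2 fold change over the square root of F. Medians over names of ratios between single libraries used 0.5 added reads, and ratios of summed levels used no added reads. Names were given in the text by level (the 4 highest of 5 letters, 3 each of 6 and 7, and 2 each of 8 and of 9 or more, where 1 had a read), and as the 3 of smallest p per direction with no overlap and at least 0.5 CPM. Repeat (AAAAT)n, then (AATAA)n, and finally (AATAT)n were added after their values were seen. Over repeat names with at least 10 reads, libraries of the same group were further apart than sampling noise. Chi-square per degree of freedom was 7.69 for knockout and 10.7 for control, so none was taken as the same library sequenced again. This check cannot show that the pools came from different embryos. The array sequences of some names are not reported here. Alternatives were DESeq2 1.42.0, limma-voom (limma 3.58.1), other scalings, no filter, a threshold of 0.10, a replicate block, other unit lengths and leaving out each library.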

Additional observations from a re-analysis of the deposited data

How the results depend on the processing

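The count of 0 members called was the same with DESeq2, limma-voom, every other scaling tried, no low-count filter (176 members tested, 4 with an unadjusted p under 0.05), a threshold of 0.10, and without each library in turn. Replicate block: edgeR called 0 members, with 1 at an unadjusted p under 0.05, and the log2 ratio of the summed level was -0.044. Over all tested names, each of the other scalings also called 0. The smallest edgeR adjusted p over all names in the main fit was 0.9997. Over all names, edgeR called 0 of 6562 without the filter and 0 of 2803 with the block at an adjusted p under 0.05. The share of all names at an unadjusted p under 0.05 is not given for these 2 fits. The counts of 4 and 1 are therefore no result about the members. Whether a number marks shared embryos is not given in the labels, and the deviations of same-numbered libraries correlated at 0.16 over tested repeats and 0.31 over tested members, which 2 pairs leave undecided.

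Scaling by repeats that are not simple or low-complexity gave 27 positive and 53 negative members. It lowered all names alike, with a median of -0.072 over all tested names and -0.094 over members. The log2 ratio of the summed level was -0.12, and -0.079 under scaling by all repeat reads, against -0.048 as reported. By length, the log2 ratios were -0.14 for 5 letters, -0.096 for 6, -0.12 for 7 and -0.63 for 8 letters. As reported they were -0.071, -0.028, -0.052 and -0.56. Under this scaling and under scaling by all repeat reads, (TTTTT)n was -0.039 and -0.0026, and (TTTTTAA)n -0.062 and -0.026. The other 14 of 16 tested names given in the text kept their sign in all 8 alternatives that keep 4 libraries. Without each library in turn, log2 ratios ranged from -0.15 to 0.060 for the summed level, -0.13 to 0.077 for 6 letters, -0.22 to 0.14 for 7 letters, -0.61 to -0.52 for 8 letters and -0.28 to 0.15 for A/T-only over G/C-only. Those above 0 came without control replicate 2. Without control replicate 2 or a knockout library, 7 names changed sign: (TTTATT)n ranged from -0.17 to 0.095, (TTAATTT)n from -0.31 to 0.21, (TAAAA)n from -0.30 to 0.14, (TTTTA)n from -0.22 to 0.0064, (TTTTTA)n from -0.27 to 0.19, (TTTTT)n from -0.020 to 0.075 and (TTTTTAA)n from -0.13 to 0.15. Without changing sign, (TTATT)n ranged from -0.16 to -0.0021, (ATTTAT)n from -0.20 to -0.068 and (TTTTTTT)n from -0.14 to -0.012. Knockout and control libraries overlapped only for the first of these names. They did not overlap for the others, or for the sum of 8 letters, so leaving out a library could not turn the sign there. The cause of the sign changes was not tested. Fits with a lone library assume that it varies like the others. Leaving out the 2 highest names, added after seeing the data, left the summed log2 ratio at -0.043. Depth limits names under 1 CPM most.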
